A study of Mus musculus with 24 samples.

Results

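The 6 metabotropic glutamate receptor genes described here are Grm5 of group I, Grm2 and Grm3 of group II, and Grm4, Grm7 and Grm8 of group III. They were taken by gene symbol from a table of 53379 gene IDs, of which 37598 were tested, and all 6 passed the filter on low counts. The libraries came from the right hippocampus of adult male C57/BL6N mice, 24 hours after kainate (KA) or saline (sham, SH) was injected into the cortex next to the hippocampus. Mice were 8 weeks old when acquired and had 4 weeks to acclimatize, sham mice went through the same procedures, and KA mice without convulsive seizures were left out by the study. Each treatment had 8 mice in 3 pools of 4, 2 and 2 animals. The nuclei of each pool were sorted by NeuN, a neuronal nuclear protein encoded by Rbfox3, into NeuN+ nuclei (neurons) and NeuN- nuclei (glia), which gave 12 mRNA libraries, 3 in each of the 4 groups. The labels give no genotype beyond the strain, each replicate is a pool rather than an animal, the RNA is nuclear, and the NeuN- fraction can hold any non-neuronal nucleus.

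Metabotropic glutamate receptors are G protein-coupled receptors that slowly tune the transmission carried by ionotropic glutamate receptors. Group I receptors couple to Gq and phospholipase C and sit mainly on the postsynaptic side, where Homer scaffolds hold them. Group II and group III receptors couple to Gi/o, lower cyclic AMP and mostly curb transmitter release, and Grm3 is also known from astrocytes, where it responds to glutamate and to the peptide N-acetylaspartylglutamate (NAAG).

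The deepest library held 40364768 counts and the shallowest 7769400 (median 21380824.5). The marker check followed the sort. Rbfox3 averaged 226 CPM (read counts relative to the library total after TMM scaling) in SH neurons and 44.7 CPM in SH glia, and the glial markers Cx3cr1 (microglia) and Mog (oligodendrocytes) averaged 256 and 636 CPM in SH glia against 6.42 and 16.7 CPM in SH neurons. The astrocytic marker Aldh1l1 averaged 32.1 CPM in SH glia and 6.56 CPM in SH neurons. Libraries of replicate 1 of SH glia and replicate 2 of KA glia were made from about 0.05 ng of RNA with 15 PCR cycles, and the others from about 1 ng with 10 cycles.

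Grm3 was the 1 receptor gene of the 6 with its higher level in glia, and that level was lower after KA. It encodes mGlu3 and lies at chr5:9485541-9725170 on the minus strand (GRCm38), with no other annotated gene over its exons. Its level in SH glia was 185, 172 and 257 CPM, and in KA glia 63.6, 38.8 and 42.8 CPM. Every KA pool lay far below every SH pool. The means were 205 ± 45.9 CPM and 48.4 ± 13.3 CPM (SD, n = 3 each). The log2 fold change (logFC) of KA over SH was -2.08 (SE 0.39), which is 4.24-fold lower, with a false discovery rate (FDR) of 0.0439 in edgeR's quasi-likelihood test. Grm3 was the 57th gene of 37598 by p-value in glia.

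The 250 bases before the RefSeq start of Grm3 are shown because it is the receptor gene called between KA and SH glia. They lie at chr5:9725353-9725602 on the minus strand of GRCm38.p6, with a GC content of 62.4%. Capitals mark the GC box GGGCGG, the binding motif of Sp-family factors, searched on both strands together with the CRE motif TGACGTCA and the AP-1 motif TGANTCA, which were not found in this window.
Grm3: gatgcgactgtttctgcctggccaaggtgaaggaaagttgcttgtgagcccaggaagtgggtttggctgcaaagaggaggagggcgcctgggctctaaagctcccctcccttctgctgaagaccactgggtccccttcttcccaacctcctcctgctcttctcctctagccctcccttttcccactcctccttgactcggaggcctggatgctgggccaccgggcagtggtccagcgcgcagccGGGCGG
The GC box stood in 32.7% of 32851 promoter windows of the same length, the CRE motif in 1.55% and the AP-1 motif in 6.75%. RefSeq windows were matched for 4 of the 6 genes, namely Grm2, Grm3, Grm7 and Grm8, and each of the 4 held a GC box before its first listed start.

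**Figure D1:**
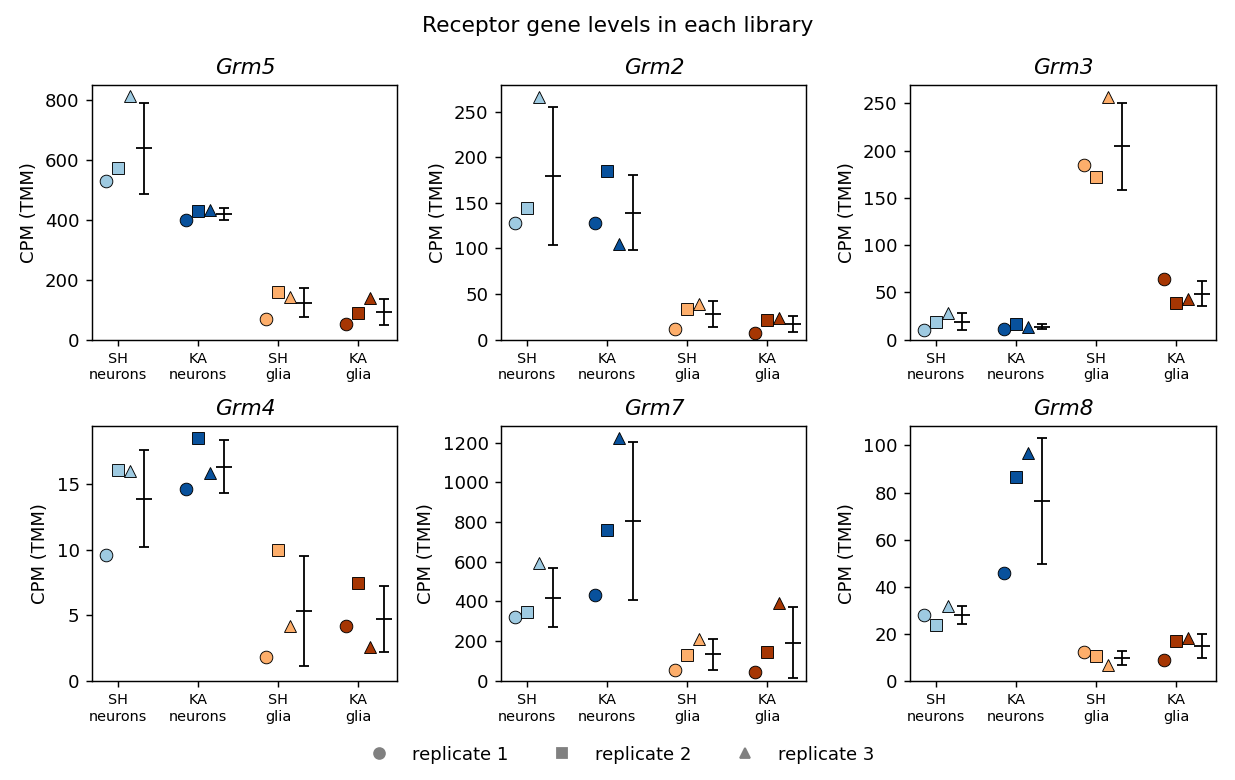
Level of each receptor gene in CPM (y axis, TMM-scaled, linear from 0) in the 12 libraries by group (x axis). Points are single pools with their replicate number as symbol, and the bar is the mean with SD of 3 pools. Grm3 is the only panel in which SH glia stand highest, and its KA glia points lie between 38.8 and 63.6 CPM.

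Grm3 was the only one of the 6 receptor genes called between KA and SH in glia at an FDR below 0.25. Of all genes tested, 0.306% were called lower and 0.442% higher in KA glia at that threshold. KA fully below SH, as for Grm3, was found for 3% of all genes in glia, and KA fully above SH for 3.61%. The median logFC of all genes in glia was 0.14, and Grm3 lay at -2.22 relative to it. Leaving out KA glia replicate 2, a low-input library, gave a logFC of -2.08 with an FDR of 0.329, so the call then did not hold. That fit called 93 genes higher and 6 genes lower over all genes in glia, where the main fit called 166 and 115. Leaving out both low-input libraries gave -2.23 with an FDR of 0.438, in a fit that called 40 genes higher and 1 gene lower over all genes in glia. The other 5 single glial libraries could be left out with the call kept, and the logFC ranged from -2.39 to -1.89 over the 6.

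The other 5 receptor genes were not called in glia. Grm2 was at 11.3, 33.9 and 38.9 CPM in SH glia and 6.87, 21.1 and 23.4 CPM in KA glia (logFC -0.71, SE 0.50, FDR 1). Each KA pool stood at 0.601 to 0.621 of the SH pool with the same replicate number, while the groups overlapped. Over 10 other settings of the analysis Grm2 was called in 0, with a lowest FDR of 0.258. With the replicate number as a block in edgeR, 1 of the 6 receptor genes was called in glia, Grm3, and 2 had an unadjusted p under 0.05. That block called 4.17% of all genes lower and 3.47% higher. Grm5 (logFC -0.40, SE 0.44) and Grm4 (-0.18, SE 0.53) were below 0, and Grm7 (0.53, SE 0.66) and Grm8 (0.59, SE 0.37) were above 0, all with an FDR of 1 in edgeR's quasi-likelihood test. The direction of Grm4 turned to 0.62 without SH glia replicate 2 and to 0.12 without KA glia replicate 3, and that of Grm7 to -0.53 without KA glia replicate 3.

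The astrocytic, oligodendrocyte precursor, microglial and oligodendrocytic marker lists each had a negative median logFC in glia. The summed level of 10 astrocytic markers was 1969 to 2792 CPM in SH glia and 1189 to 2261 CPM in KA glia, with a median logFC of -0.92 and 1 marker called lower (Aldoc). The summed level of 5 oligodendrocyte precursor markers was 1354 to 2439 CPM in SH glia and 560 to 859 CPM in KA glia without overlap, with a median logFC of -1.44 and 1 marker called lower (Cspg4). Of 8 microglial markers 2 were called lower (P2ry12 and Siglech, median logFC -0.58), and of 8 oligodendrocytic markers 0 (median -0.79), with 3 of these 8 at an unadjusted p under 0.05, 2 called lower by DESeq2 and 1 by the newer quasi-likelihood method of edgeR. In the main fit 5 astrocytic, 3 oligodendrocyte precursor and 3 microglial markers had an unadjusted p under 0.05. DESeq2 called 3 astrocytic markers lower (Gja1, Aldoc and Slc4a4) and Gfap higher. It also called 3 oligodendrocyte precursor and 3 microglial markers lower. Over all genes it called 645 lower and 365 higher in glia. The newer edgeR fit called 1 astrocytic, 2 precursor and 2 microglial ones lower, beside 228 of all genes. The endothelial and pericytic markers had a median logFC of 0.35, with 0 of 8 called by either edgeR method or DESeq2 and 0 at an unadjusted p under 0.05. With the replicate number as a block, the markers called lower were 6 astrocytic (and Gfap higher), 4 oligodendrocyte precursor, 3 microglial and 4 oligodendrocytic, and 1 endothelial marker (Tek) was higher, beside 4.17% of all genes called lower and 3.47% higher. Without both low-input libraries edgeR called 0 of these markers, with 4 astrocytic, 2 oligodendrocyte precursor, 3 microglial, 1 oligodendrocytic and 0 endothelial and pericytic markers at an unadjusted p under 0.05. No defining marker of these glial types was at 0 in any glial library of either treatment.

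Grm3 was also lower in KA glia when set against these markers. As a percentage of the astrocytic marker sum, Grm3 was 8.37 ± 1.09 in SH glia (7.14 to 9.22) and 2.86 ± 0.39 in KA glia (2.49 to 3.26). Against the oligodendrocyte precursor marker sum it was 10.8 ± 1.76 in SH glia (9.24 to 12.7) and 6.59 ± 1.47 in KA glia (4.98 to 7.85; all SD, n = 3). The groups did not overlap on either scale. The astrocytic markers did not move as 1 group. Gfap was 119 to 176 CPM in SH glia and 360 to 720.0 CPM in KA glia (logFC 1.94, FDR 0.546), and made up 5.26% to 6.29% of the sum in SH and 25.1% to 41.9% in KA. Gja1 (-1.69), Gjb6 (-1.64), Slc4a4 (-1.36), Slc1a3 (-1.03), Slc1a2 (-0.81) and Aldh1l1 (-0.11) had negative logFC and were not called in the main fit. Aqp4 (0.68) and Sox9 (0.14) had positive logFC and were not called either. Without Gfap in the sum, an alternative chosen after seeing the data, Grm3 was 8.89 ± 1.20% in SH glia (7.54 to 9.83) and 4.24 ± 0.46% in KA glia (3.76 to 4.67), a smaller drop that still left the groups apart. In bulk samples fewer cells of a type and less RNA per cell cannot be told apart, and the part of the markers in the Grm3 result was not tested further.

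In neurons Grm3 was low. It was 9.99, 18.3 and 28.2 CPM in SH neurons and 10.9, 16.5 and 13.2 CPM in KA neurons, and the groups overlapped (logFC -0.47, SE 0.38, FDR 1). The neuronal level was 5.40%, 10.6% and 10.96% of the glial level of the same pool in SH, and 17.2%, 42.6% and 30.8% in KA. The medians of the 10 astrocytic markers, expressed the same way, were 11%, 12.6% and 26.0% in SH and 10.7%, 32.1% and 37.4% in KA. Grm3 was inside the range of the 10 markers in 5 of 6 pools and below it in SH pool 3, where the lowest marker was at 16.5%. That range was wide, so a place inside it says little. Its highest marker was at 58.0%, 110.4% and 120.1% in SH and 85.4%, 155.1% and 141.3% in KA. The 5 oligodendrocyte precursor markers reached 4.43%, 8.18% and 7.5% at most in SH and 7.11%, 14.5% and 13.7% in KA, and Grm3 was above all of them in all 6 pools. The share of the neuronal Grm3 reads that came from glial nuclei in the NeuN+ gate was not tested.

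The KA effect on Grm3 differed between neurons and glia by 1.61 on the log2 scale (SE 0.54, unadjusted p = 0.00879, FDR 1 in edgeR's quasi-likelihood test). No gene passed an FDR of 0.25 in this test of the difference (0% of 37598), 502 genes had an unadjusted p under 0.05, and DESeq2 called 39 genes and the newer quasi-likelihood method of edgeR 0. Pools carry the same number in both fractions, and with the pool as a block the difference for Grm3 was 1.725 with an FDR of 0.148, where 0.471% of all genes were called. None of the other 5 receptor genes was called in this test, with or without the block, and their unadjusted p in the unblocked fit was 0.12 or higher.

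**Figure D2:**
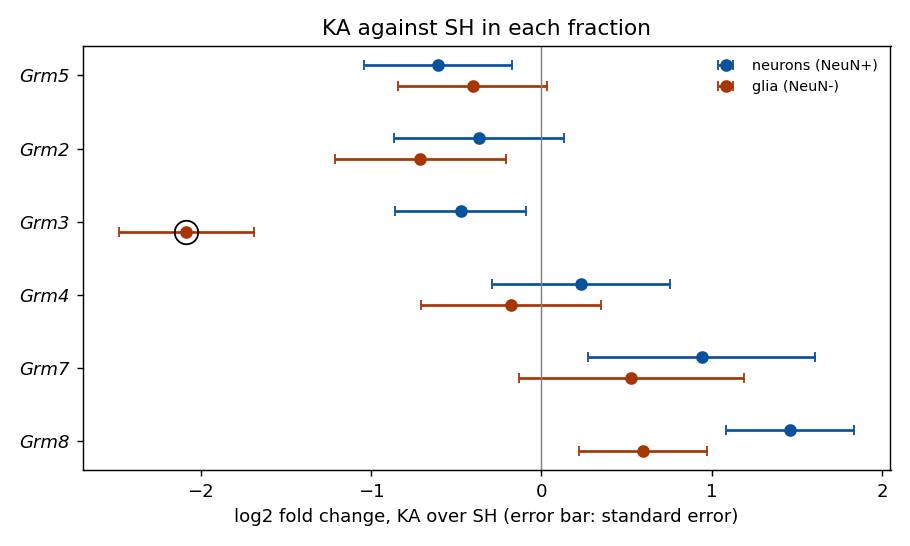
Log2 fold change of KA over SH (x axis) for the 6 receptor genes (y axis) in neurons (blue) and glia (brown). Points are estimates, bars are standard errors, and the open ring marks the 1 estimate with an FDR below 0.25, that of Grm3 in glia at -2.08. Grm8 in neurons lies farthest to the right, at 1.46.

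Grm8 had the largest estimated rise of the 6 in neurons. It encodes mGlu8, a presynaptic group III receptor, and lies at chr6:27275119-28135178 on the minus strand, with 0.97% of its exon bases shared with the microRNA gene Mir592. Its level was 28.0, 23.9 and 31.7 CPM in SH neurons and 45.8, 86.8 and 96.6 CPM in KA neurons. All KA pools lay above all SH pools, and KA replicate 1 stood nearest to the SH pools. The means were 27.8 ± 3.91 CPM and 76.4 ± 27.0 CPM (SD, n = 3 each), and the logFC was 1.46 (SE 0.38, unadjusted p = 0.00128, FDR 0.314), a value 2.75-fold higher that did not pass the threshold of 0.25.

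The ratio of KA to SH for Grm8 in neurons was 1.64, 3.64 and 3.05 in pools 1, 2 and 3, and with the replicate number as a block the logFC was 1.40 (SE 0.33) and the FDR 0.0379, past the threshold. Grm7 joined it with the block, at 0.87 (SE 0.26, FDR 0.14). Thus 2 of 6 receptor genes were called higher in KA neurons with the block, beside 1.94% of all genes, and 0 of 6 without it, beside 0.279%. Without the block 1 of the 6 had an unadjusted p under 0.05, and both DESeq2 and the newer quasi-likelihood method of edgeR called 1, Grm8. None was called lower with or without the block, where 1.11% and 0.0612% of all genes were. Over 10 other settings of the analysis, Grm8 was past the threshold in 6, with an FDR between 0.0379 and 0.648. Of the 6 neuronal libraries left out in turn, only the fit without KA neurons replicate 1 passed (FDR 0.153).

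Grm8 has 3 RefSeq starts, and the window before the first, chr6:28135147-28135396 on the minus strand of GRCm38.p6, is shown for comparison with that of Grm3. Its GC content was 68.4%, and capitals mark 1 GC box and 1 AP-1 motif, the motif of Fos and Jun proteins.
Grm8: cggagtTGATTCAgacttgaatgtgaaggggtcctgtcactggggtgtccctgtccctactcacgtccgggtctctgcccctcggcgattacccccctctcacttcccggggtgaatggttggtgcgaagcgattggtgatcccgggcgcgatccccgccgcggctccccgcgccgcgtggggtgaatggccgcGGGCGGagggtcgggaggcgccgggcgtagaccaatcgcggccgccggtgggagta
The windows before the other 2 starts held none of the 3 motifs. A match of letters is a description of the sequence and does not show that a factor was bound.

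**Figure D3:**
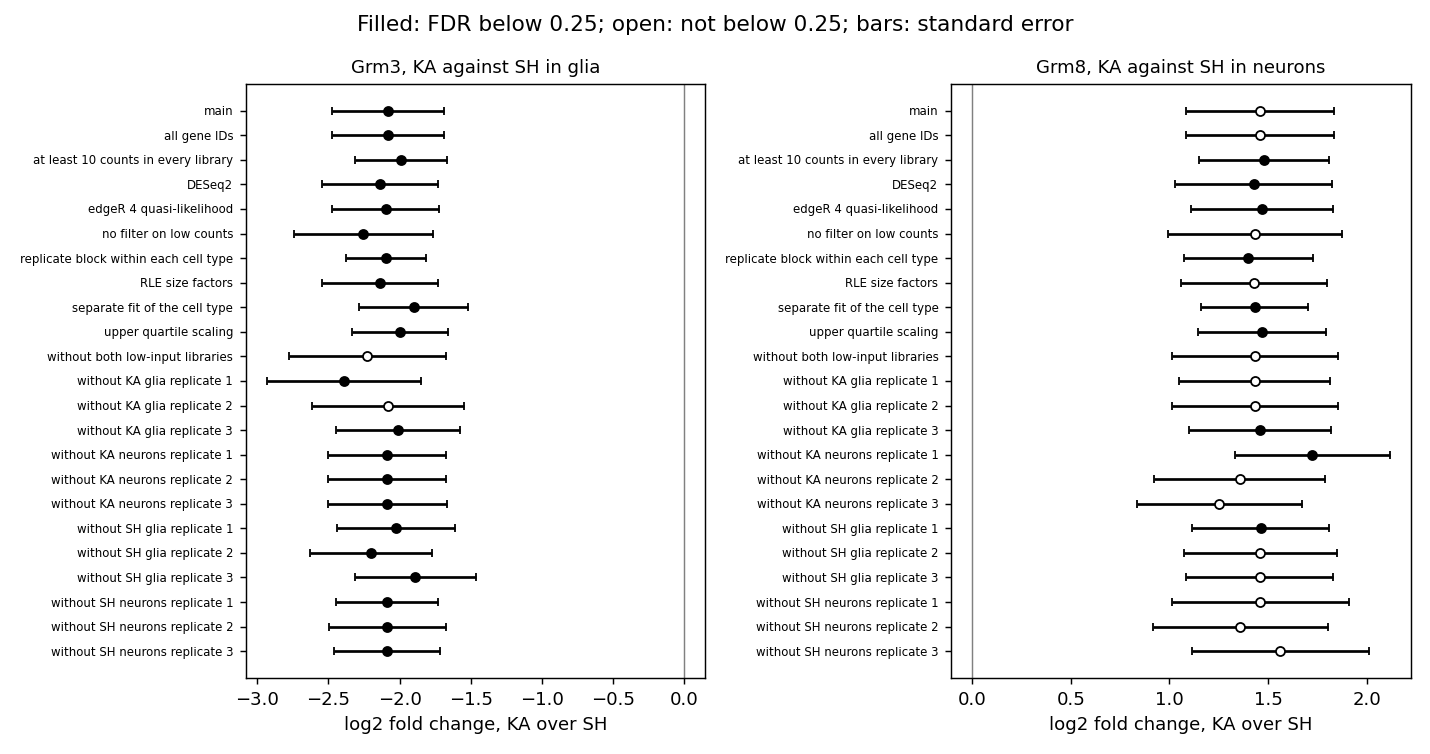
Log2 fold change of KA over SH (x axis) for Grm3 in glia (left) and Grm8 in neurons (right) under each setting or with each library left out (y axis). Bars are standard errors, and filled points have an FDR below 0.25. All Grm3 values lie between -2.39 and -1.89 and all Grm8 values between 1.25 and 1.72.

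Grm7 encodes mGlu7, which sits at presynaptic active zones, and lies at chr6:110645581-111567230 on the plus strand. Its exons share 2.21% of their bases with the antisense gene Gm20387. Strand was not used in counting, so reads within that shared part, and only those, could not be told apart by strand. It was 323, 344 and 591 CPM in SH neurons and 430.1, 762 and 1222.5 CPM in KA neurons. The groups overlapped, and each KA pool exceeded the SH pool of the same number, by 1.33, 2.21 and 2.07 times. The logFC was 0.94 (SE 0.66, FDR 1).

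Grm5 encodes mGlu5, the group I receptor of the set, and lies at chr7:87584168-88134907 on the plus strand. Its level was 528, 574 and 812 CPM in SH neurons and 398, 428 and 431 CPM in KA neurons. All KA pools lay below all SH pools, a separation that 4.45% of all genes had in this direction and 5.27% in the other, as Grm8 did. The means were 638 ± 152 CPM and 419 ± 18.5 CPM (SD, n = 3 each), and the logFC of -0.61 (SE 0.44, FDR 1) did not pass the test.

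Grm2 and Grm4 overlapped between KA and SH neurons. Grm2, the presynaptic group II receptor mGlu2 at chr9:106643095-106656082 on the minus strand, was 128, 145 and 266 CPM in SH neurons and 128, 185 and 105 CPM in KA neurons (logFC -0.37, SE 0.50, FDR 1). Its estimate rested on SH neurons replicate 3, without which it was 0.03. The exons of Grm2 share 9.6% of their bases with the antisense gene Gm28111. Grm4, the group III receptor mGlu4 at chr17:27422387-27521403 on the minus strand, was 9.62, 16.10 and 16.002 CPM in SH neurons and 14.6, 18.6 and 15.9 CPM in KA neurons (logFC 0.23, SE 0.52, FDR 1).

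Neuronal markers gave the following values beside these results. The summed level of 10 neuronal markers was 4486 to 7232 CPM in SH neurons and 4242 to 5418 CPM in KA neurons, with a median logFC of -0.01. None of the 10 was called by either edgeR method or DESeq2, and 0 had an unadjusted p under 0.05. The 5 dentate granule neuron markers summed to 665 to 980 CPM in SH neurons and 457 to 577 CPM in KA neurons. These sums did not overlap, and the median logFC was -0.83. In the main fit 1 was called lower (Stxbp6). DESeq2 and the replicate block each called 2 lower (also C1ql2), the block beside 1.11% of all genes. Dsp (-0.83) and Dock10 (-0.43) were not called, and Prox1 was level, at 150 CPM in SH and 160 CPM in KA neurons (logFC 0.09). The list was not particular to NeuN+ nuclei. It summed to 802 to 1544 CPM in SH glia, where Dock10 averaged 783 CPM against 247 CPM in SH neurons. The 6 interneuron markers summed to 304 to 557 CPM and 422 to 496 CPM, with 0 called by either edgeR method or DESeq2 and 0 at an unadjusted p under 0.05. The part of a changed mix of neurons in the receptor results was not tested.

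Between fractions, Grm3 and the other 5 receptor genes lay on opposite sides. In SH, Grm2 (logFC of neurons over glia 2.68, FDR 0.00316), Grm5 (2.37, FDR 0.00266) and Grm8 (1.52, FDR 0.0144) were higher in neurons, and Grm3 was higher in glia (-3.44, FDR 0.000111), at an FDR below 0.05 in edgeR's quasi-likelihood test. Of all genes, 6.05% were called higher and 4.67% lower in neurons. In KA, Grm2 (3.02, FDR 0.00182), Grm4 (1.79, FDR 0.0449), Grm5 (2.17, FDR 0.0048) and Grm8 (2.38, FDR 0.0011) were higher in neurons and Grm3 was higher in glia (-1.83, FDR 0.00557), beside 5.88% and 3.98% of all genes. Grm4 in SH (1.37, FDR 0.131) and Grm7 in SH (1.66, FDR 0.157) and in KA (2.07, FDR 0.0714) did not pass. With the pool as a block these 3 passed, at 1.63 (FDR 0.00481), 1.80 (FDR 0.000857) and 2.47 (FDR 7.59e-05), where 14.2% of all genes in SH and 14.1% in KA were called higher in neurons.

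Several of these calls were lost when libraries were left out or the settings changed. Without both low-input libraries 0 receptor genes were called higher in SH neurons by edgeR, with an FDR of 0.0808 for Grm2, 0.104 for Grm5 and 0.101 for Grm8. That fit called 361 of 39577 genes higher in SH neurons, against 2276 of 37598 in the main fit. The call of Grm8 in SH was also lost without KA glia replicate 2 (FDR 0.0551), SH glia replicate 1 (0.0515), SH glia replicate 3 (0.0745) or SH neurons replicate 3 (0.0572). It was lost with no filter on low counts as well (0.0538). In KA, Grm3 was lost without KA glia replicate 1 (0.0524), Grm5 without KA glia replicate 1 (0.139) or KA glia replicate 2 (0.11), and Grm4 without any of 9 of the 12 libraries (0.05 to 0.19), namely 5 neuronal and 4 glial ones. Grm4 in KA was also lost with relative log expression scaling (0.0764), upper quartile scaling (0.126) and at least 10 counts in every library (0.0997), and Grm5 in KA without both low-input libraries (0.0751). Grm7 in KA passed in 5 of 9 other settings, with DESeq2 (0.0182), the newer edgeR fit (0.0456), upper quartile scaling (0.0205), at least 10 counts in every library (0.0334) and the pool block, and without KA glia replicate 3 (0.00639). No direction changed under any of these fits. With another scaling of the libraries, by relative log expression, the median of all genes moved from 0.01 to -0.14 in SH, and relative to that median Grm3 was at -3.45 and -3.50 and Grm2 at 2.66 and 2.61 under the 2 scalings.

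The NeuN- level of some receptor genes, but not all, stayed within the range of the neuronal markers in that fraction. For 10 neuronal markers the median NeuN- level was 17.3% to 30.5% of the NeuN+ level of the same pool in SH and 11.6% to 24.1% in KA. Grm2 (8.86% to 23.4% in SH, 5.36% to 22.4% in KA), Grm5 (12.7% to 27.9% and 13.2% to 32.1%) and Grm7 (17.4% to 37.7% and 9.76% to 31.9%) were inside the range of the 10 markers in 6 of 6 pools. The width of this range varied between pools. It ran from 2.6% to 26.3% in SH pool 1, 2.73% to 23.4% in KA pool 1 and 16.9% to 38.1% in KA pool 3. A place inside a range this wide says little. Grm8 (20.6% to 44.3% and 18.7% to 19.7%) was inside in 5 and above in 1. Grm4 (19.2% to 62.0% and 16.1% to 40.2%) was inside in 2, above in 3 and below in 1, on counts of 23 to 205 reads per glial library. Grm3, at 912% to 1850% in SH and 235% to 582% in KA, was above the range in all 6.

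**Figure D4:**
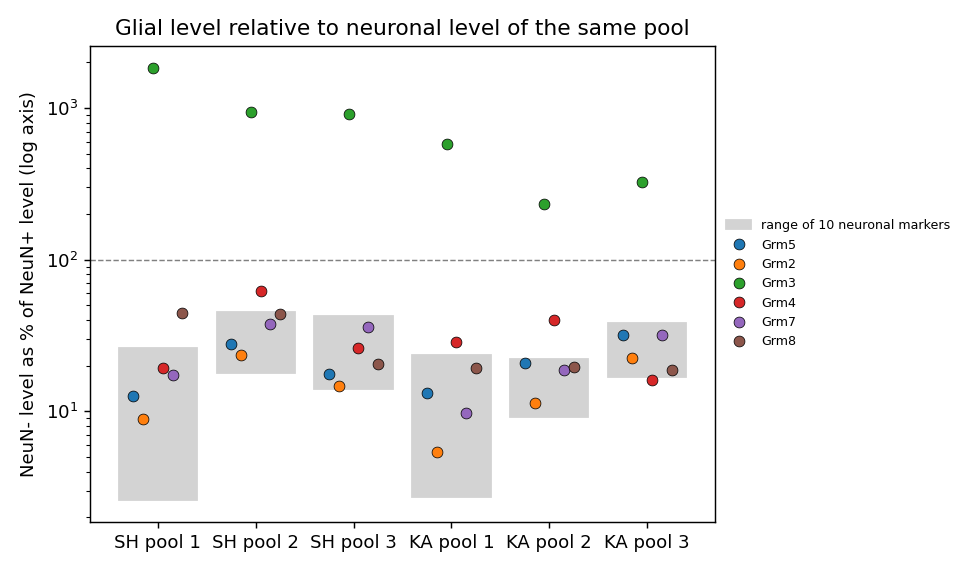
NeuN- level as a percentage of the NeuN+ level of the same pool (y axis, log scale) for the 6 receptor genes in the 6 pools (x axis). Points are single genes, grey boxes span the 10 neuronal markers and the dashed line marks equal levels. Grm3 lies above the line in every pool, from 235% to 1850%, and the other 5 genes below it.

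Ordered by length-scaled level (CPM per kilobase of exon, RPKM), the receptors of SH neurons ran Grm7 (71.3 ± 25.3), Grm5 (62.2 ± 14.8), Grm2 (36.7 ± 15.4), Grm3 (6.17 ± 2.99), Grm8 (2.81 ± 0.40) and Grm4 (2.33 ± 0.62; SD, n = 3). Pools of neighbours in this order overlapped except at 2 places. The lowest Grm2 pool (26.1) lay above the highest Grm3 pool (9.25), and the lowest Grm3 pool (3.28) just above the highest Grm8 pool (3.20). In KA neurons the order was Grm7 (137 ± 67.6), Grm5 (40.9 ± 1.80), Grm2 (28.5 ± 8.46), Grm8 (7.72 ± 2.72), Grm3 (4.44 ± 0.92) and Grm4 (2.74 ± 0.34), so that Grm8 stood before Grm3. Grm8 and Grm3 overlapped there, and the other neighbours did not.

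On the same RPKM scale, Grm3 stood first in SH glia at 67.2 ± 15.1, and its lowest pool (56.5) lay above the highest pool of the next, Grm7 (36.1; mean 22.6 ± 13.3). Grm5 (12.03 ± 4.82), Grm2 (5.73 ± 3.00), Grm8 (0.99 ± 0.30) and Grm4 (0.89 ± 0.70) followed, and of these neighbours Grm2 and Grm8 did not overlap. In KA glia the mean of Grm7 (32.5 ± 30.4) was above that of Grm3 (15.9 ± 4.37), and their pools overlapped. Grm5 (9.09 ± 4.199), Grm2 (3.50 ± 1.83), Grm8 (1.48 ± 0.51) and Grm4 (0.79 ± 0.42) came next, and Grm5 and Grm2 were the only neighbours without overlap.

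Among the genes of the receptors' pathways, those called in glia were lower in KA. Folh1, which encodes the peptidase that cleaves NAAG outside the cell, was 95.4, 55.1 and 148 CPM in SH glia and 26.0, 19.0 and 17.6 CPM in KA glia. No KA pool reached an SH pool, and the logFC was -2.26 (SE 0.48, FDR 0.0824 in edgeR's quasi-likelihood test). Gnai1, which encodes an inhibitory G protein alpha subunit, was 149, 97.8 and 191 CPM in SH glia and 33.0, 39.0 and 57.5 CPM in KA glia, with no overlap (logFC -1.76, SE 0.36, FDR 0.0653). KA fully below SH, as for Folh1 and Gnai1, was found for 3% of all genes in glia. Folh1 was 3.93 ± 1.27% of the astrocytic marker sum in SH glia and 1.26 ± 0.30% in KA glia, and Gnai1 5.86 ± 0.95% and 2.70 ± 1.07% (SD, n = 3). Without Gfap in the sum, Folh1 was 4.18 ± 1.36% and 1.86 ± 0.39%, and Gnai1 6.22 ± 1.02% and 4.14 ± 1.97%, with overlapping groups for Gnai1 (5.29 to 7.31 and 1.95 to 5.76). Against the oligodendrocyte precursor marker sum the drops were also smaller, from 4.97 ± 1.01% to 2.88 ± 0.73% for Folh1 and from 7.501 ± 0.31% to 5.91 ± 1.60% for Gnai1. Both calls were lost without both low-input libraries (FDR 0.569 and 0.975) and without KA glia replicate 2 or SH glia replicate 3. Over all genes these fits called 1, 6 and 16 genes lower in glia, in that order, against 115 in the main fit. The call of Folh1 was also lost without KA glia replicate 3, and that of Gnai1 without KA glia replicate 1 and when glia were fitted alone.

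**Figure D5:**
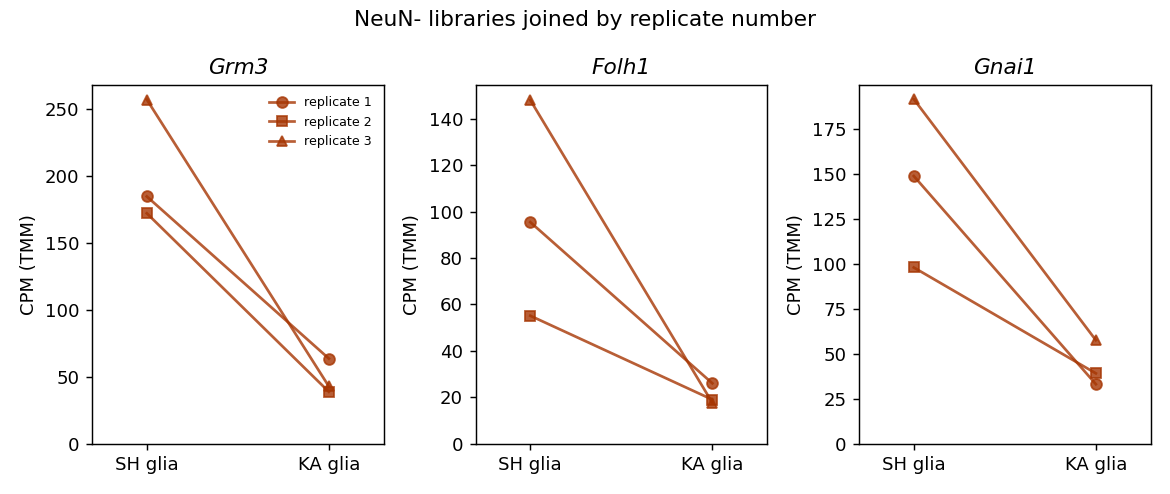
Level of Grm3, Folh1 and Gnai1 in CPM (y axis, linear from 0) in the 3 SH and 3 KA glial libraries (x axis). Lines join pools with the same replicate number. All 9 lines fall, and in each panel the highest KA pool (63.6, 26.0 and 57.5 CPM) is below the lowest SH pool (172, 55.1 and 97.8 CPM).

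In the list of glutamate and NAAG supply and clearance, Folh1 was the 1 gene of 13 called lower in glia (median logFC of the list -0.53, against 0.14 over all genes). The next by p-value were Glul, the glutamine synthetase of astrocytes (-0.92, SE 0.42), and Glud1, a glutamate dehydrogenase (-0.57, SE 0.30), which were not called. With the replicate number as a block 5 of the 13 were called lower, Folh1, Glul, Glud1 and the glutamate transporter genes Slc1a2 and Slc1a3, beside 4.17% of all genes. In neurons 0 of 13 were called by either edgeR method (1 at an unadjusted p under 0.05, and 1 called by DESeq2). That gene, Folh1, was 3.03, 3.50 and 11.3 CPM in SH neurons and 1.71, 1.84 and 1.34 CPM in KA neurons, with a logFC of -1.87 (SE 0.50) and an FDR of 0.358, or 0.062 with the block. Without SH neurons replicate 3, the highest pool, the logFC was -1.005 with an FDR of 1.

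In the list of group II and III signalling, Gnai1 was the 1 gene of 15 called lower in glia (median logFC -0.46). Adcy8, an adenylyl cyclase, was at -0.78 (SE 0.34) and Kcnj3, a subunit of G protein-gated potassium channels, at -0.79 (SE 0.39), and both were not called. With the replicate block 4 of 15 were called lower, Gnai1, Adcy5, Adcy8 and Kcnj3, beside 4.17% of all genes. In neurons 0 of 15 were called by either edgeR method or DESeq2, and 0 had an unadjusted p under 0.05. With the replicate block in edgeR 0 of 15 were called there too, and 3 had an unadjusted p under 0.05. The smallest p-values there were those of Adcy9 (-0.79, SE 0.44), Adcy1 (-0.94, SE 0.54) and Kcnj3 (-0.64, SE 0.38).

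In the list of group I signalling 0 of 19 genes were called in either fraction by either edgeR method. In neurons 2 had an unadjusted p under 0.05 and DESeq2 called 1, Homer1, which encodes the scaffold that binds mGlu5. Homer1 was 131, 138 and 207 CPM in SH neurons and 484, 327 and 342 CPM in KA neurons. Its KA pools were all above its SH pools, as for 5.27% of all genes, with a logFC of 1.28 (SE 0.40, FDR 0.641). It passed the threshold in 5 of 10 other settings, among them neurons fitted alone (FDR 0.0672), upper quartile scaling (0.106) and at least 10 counts in every library (0.0714). With the replicate block Homer1 (FDR 0.0235) and Shank1 were called higher and Itpr1, the inositol trisphosphate receptor, lower (-0.75, FDR 0.212), beside 1.94% of all genes higher and 1.11% lower. Trpc5, a cation channel, was at -0.73 (SE 0.38) and not called. In glia 1 of the 19 had an unadjusted p under 0.05. DESeq2 and the replicate block each called 1 lower, the block beside 4.17% of all genes. Plcb4, a phospholipase C (-0.38, SE 0.29), and Trpc1, a cation channel (-0.51, SE 0.32), did not pass in glia.

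In the list of receptor partners and desensitisation 0 of 12 genes were called in either fraction by either edgeR method. In neurons 0 had an unadjusted p under 0.05 and DESeq2 called 0, and in glia 1 did and DESeq2 called 1, Ncdn. With the replicate block Grasp, a scaffold of group I receptors, was called higher in neurons (1.06, FDR 0.065), and Ncdn (-0.73, FDR 0.193) and the arrestin gene Arrb2 (-0.79, FDR 0.159) lower. These calls stood beside 1.94% of all genes called higher and 1.11% lower. In glia the block called Ncdn (-1.08, FDR 0.0133) and the receptor kinase gene Grk3 (-0.61, FDR 0.242) lower, beside 4.17% of all genes. Siah1a, a ubiquitin ligase gene, was at -0.40 (SE 0.32) in glia and not called. The medians of the lists in neurons, from -0.20 to -0.11 for the signalling and partner lists and -0.21 for the glutamate list, stood beside 0.000475 over all genes.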

How the data were processed

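mRNA of sorted nuclei was amplified (SMART-Seq v4), sequenced on 1 of 2 platforms not named per library, and read counts per gene were deposited. The authors trimmed reads with Trim Galore (version 0.4.3 per the submitters' processing notes), aligned them to mm10 with Rsubread and counted them with featureCounts over GENCODE M16. The table is unnormalized. Reads were counted without strand by default. Symbols and positions came from GENCODE M21, and promoter windows from RefSeq (GRCm38.p6). The methylation libraries were not used here.

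Counts were tested with edgeR 4.0.16 (R 4.3.3; legacy quasi-likelihood fit, TMM, filterByExpr with a minimum count of 10) over all 12 libraries with 4 group means, where the study fitted edgeR for KA against SH within a cell type. The FDR is Benjamini-Hochberg over 37598 genes, with thresholds of 0.25 for KA against SH and for the difference of the KA effect, and 0.05 between fractions. SE is logFC over the square root of F. CPM are TMM-scaled and RPKM use the union of exons. The common biological coefficient of variation was 0.674. Scripts were tested on simulated counts. Alternatives were DESeq2 1.42.0, the newer edgeR fit, other scalings and filters, separate fits, left-out libraries and a replicate block.

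Replicate numbers were taken to pair libraries. Deviations from the group mean of same-numbered KA and SH libraries correlated at 0.399, 0.264 and 0.551 in neurons and 0.457, 0.543 and 0.764 in glia. Different-numbered libraries correlated at -0.502 to 0.142 in neurons and -0.671 to 0.349 in glia. Deviations within a group cancel out, which pushes some of these pairs negative, so the values do not establish the pairing. Nothing says whether same-numbered pools shared a day. The block by pool joins the NeuN+ and NeuN- nuclei of the same mice.

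Members and gene lists were chosen with earlier results of these data known. All 6 members are named, with list genes called in KA against SH or among the 3 smallest p-values of their list, the genes of most like pattern, and Rbfox3, Aldh1l1, Cx3cr1 and Mog. Genes called only under another setting or with the block, and the called markers, were named after their values were seen. Some genes that these rules select are not reported here. P-values of the main fit measure the spread between the pools of a group, with the NeuN+ and NeuN- libraries of a pool taken as independent. With a block they measure the spread left after replicate or pool differences are removed.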

Additional observations from a re-analysis of the deposited data

How the results depend on the processing

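Of the 6 receptor genes, edgeR called 0 higher in KA neurons without a block. The count was 1 with at least 10 counts in every library, with DESeq2, with the newer edgeR fit, with upper quartile scaling and when neurons were fitted alone, and 2 with the replicate block. It ranged from 0 to 1 with a library left out. Over all genes 105 were called higher in KA neurons in the main fit. The number was 329 of 18632 genes with at least 10 counts in every library, 305 with DESeq2 and 194 with the newer edgeR fit. Upper quartile scaling called 228, neurons fitted alone 409 of 32012 and the replicate block 730. With a library left out 10 to 184 genes were called higher. In glia the count of 1 called lower became 0 without both low-input libraries, and ranged from 0 to 1 with a library left out. Over all genes 115 were called lower in glia in the main fit and 1 without both low-input libraries. With a library left out 6 to 240 were. In the difference of the KA effect the count of 0 became 1 with the pool as a block, beside 0.471% of all genes. Between fractions in SH, the 3 called higher in neurons became 5 with the pool block and 0 without both low-input libraries. Over all genes the 2276 called higher became 5322 with the pool block and 361 without both low-input libraries. Between fractions in KA, the 4 called higher ranged from 2 to 4 with a library left out and the 1 called lower from 0 to 1. Over all genes the 2211 called higher ranged from 407 to 3378 there, and the 1497 called lower from 954 to 2327. The replicate block and the pool block changed no call of a receptor gene other than those of Grm8 and Grm7 in neurons, Grm3 in the difference of the KA effect, Grm4 and Grm7 between fractions in SH, and Grm7 between fractions in KA. The causes were not tested.

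Directions turned for uncalled values. The logFC of Grm4 in glia was 0.065 when glia were fitted alone, and the difference of the KA effect for Grm5 was 0.11 without both low-input libraries. With a library left out, the logFC ranged from -0.63 to 0.031 for Grm2 in neurons, from -0.76 to 0.62 for Grm4 in glia and from -0.53 to 1.04 for Grm7 in glia. The difference of the KA effect ranged from -0.38 to 1.00 for Grm4, from -0.46 to 0.21 for Grm5 and from -0.10 to 1.48 for Grm7.

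Over all genes the split of calls in glia was 166 higher and 115 lower, against 305 and 572 with upper quartile scaling, 365 and 645 with DESeq2, 443 and 760 with at least 10 counts in every library, and 1305 and 1566 with the replicate block. In neurons it was 105 and 23, against 305 and 151 with DESeq2 and 730 and 417 with the block. Depth limits Grm4 most, with 23 to 205 reads per glial library, and with 3 pools a group a value past no threshold does not show equal levels.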

Other observations

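The patterns most like those of the receptor genes were sought over the 12 libraries, by Pearson's r of log2 CPM with a prior count of 2, and are given as a description in which both genes share library, depth and fraction. Grm3 was most like Hhip (r = 0.991), Pls1 (0.985) and Fam234a (0.984). Grm5 was most like Fgf14 (0.994), Rasgef1a (0.993) and Epha5 (0.992), and Gm15624 (0.988) and Syt1 (0.988) were among the 3 genes most like Grm2. Grm8 was most like Acp7 (0.979), Sult2b1 (0.976) and Acvr1c (0.976). Grm7 was most like Gm47163 (0.981), Gm7390 (0.979) and Mapk11 (0.979), and Grm4 most like Gm13446 (0.977), Tenm3 (0.975) and Zcchc9-ps (0.973).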
